A study of Mus musculus with 2 samples.

Results

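The 6 subunits of the MCM helicase, Mcm2, Mcm3, Mcm4, Mcm5, Mcm6 and Mcm7, and 4 factors that load, activate or block it, Cdc6, Cdt1, Cdc45 and Gmnn, were followed in mouse lung cancer cells before and after Runx3 restoration. The 10 genes were chosen by symbol, by a rule that uses no measured value but was written with earlier results of these data known, and all 10 were found among the 23183 genes listed for each library. KPR- is an immortalized line from a lung cancer of a KPRL/F-TAM(-) mouse, which carried p53 flox/flox, Runx3 flox/FSF, K-Ras LSL-G12D/+, FlpERT2 and Tomato alleles and inhaled Ad-Cre, an adenovirus with Cre recombinase under the CMV promoter. Cre switched on the oncogenic K-Ras allele and removed p53 and the floxed Runx3 allele, so that p53 is deleted in both groups, and a Frt-Stop-Frt cassette kept the other Runx3 allele off. 4-OHT, an active form of tamoxifen, activates the Flp recombinase, which deletes the cassette and turns KPR- cells (genotype label RUNX3 -/-) into KPRrestored cells (genotype label RUNX3 -/+). The records place the KPR- library at 0 h and the KPRrestored library at 16 h and list 1 μM 4-OHT for both, and the effects of 4-OHT, of time in culture and of the restored allele cannot be told apart with these samples. Each condition has 1 library of poly(A) RNA, so every difference given here compares 2 libraries and has no replicate check. The number of clones or mice behind the line is not given in the sources used here.

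Before a cell copies its DNA, the origin recognition complex, Cdc6 and Cdt1 load the ring-shaped MCM2-7 complex onto origins, a step called licensing. In S phase the kinases DDK and CDK let Cdc45 and the GINS complex join the ring to form the active CMG helicase, while geminin, the product of Gmnn, holds Cdt1 back so that no origin is licensed again before division. Many licensing genes are known targets of E2F transcription factors, which act at the restriction point between a resting and a dividing state, a decision in which RUNX3 is known to take part.

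The deposited values are FPKM, fragments scaled to transcript length and to the depth of the library, with totals of 521340 in KPR- and 523647 in KPRrestored. Steps in the low FPKM values gave a depth, as scaled in those values, of 21.8 M and 22.4 M fragments. The fragments behind each gene were estimated from it. The 95% intervals of log2 differences (exact Clopper-Pearson) and of levels (exact Poisson) rest on those fragments and cover counting error only. Differences are log2(FPKM + 0.005) in KPRrestored minus KPR-, and a gene was called lower or higher at a size of 0.5 or more. Runx3 itself was at 0.348 FPKM in KPR- and 0.349 FPKM in KPRrestored, with about 28 and 29 fragments, a log2 difference of 0.0074 and an interval of -0.79 to 0.81. The gene's total level therefore does not check the labels, and each direction below is that of the library labelled KPRrestored. Of 8 lung epithelial markers, 5 were expressed, with a summed level of 3973 FPKM in KPR- and 3731 FPKM in KPRrestored. Most of that sum was Krt8 (1711 and 1631 FPKM) and Krt18 (1931 and 1676 FPKM). Epcam was also lower (105 and 91.6 FPKM), while Cdh1 (119 and 130 FPKM) and Cldn4 (107 and 202 FPKM) were higher in KPRrestored. Sftpc and Sftpb, surfactant genes expressed in alveolar type II cells, were listed at 0 in both libraries, and Nkx2-1 was under 0.1 FPKM in both. Of 6 fibroblast or mesenchymal markers, Vim and Col1a1 were expressed and the sum went from 1790 to 1469 FPKM, nearly all of it Vim (1777 and 1464 FPKM). The 5 haematopoietic markers summed to 3.08 and 6.79 FPKM and the 4 endothelial markers to 1.16 and 2.22 FPKM, and the part of these shifts in the results below was not tested.

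Of the 10 genes, 6 fell by 0.5 or more on the log2 scale in the library labelled KPRrestored, namely Mcm2, Mcm3, Mcm4, Mcm5, Mcm6 and Cdc6, and 0 rose by as much. Among the 11231 genes whose FPKM averaged 1 or more, 9.29% were lower and 12.1% were higher by as much. The median difference of the 10 genes was -0.51 and 9 of them lay below 0, whereas the median over all 11231 genes was 0.0086, with quartiles of -0.23 and 0.27 and 49.0% of genes below 0. Among the 3971 genes that lie within the range of mean FPKM and of transcript length of the 10 genes, a comparison chosen after the data were seen, 5.14% were lower by 0.5 or more. In bulk RNA, a smaller share of cells that express these genes and less RNA of them per cell cannot be told apart.

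**Figure D1:**
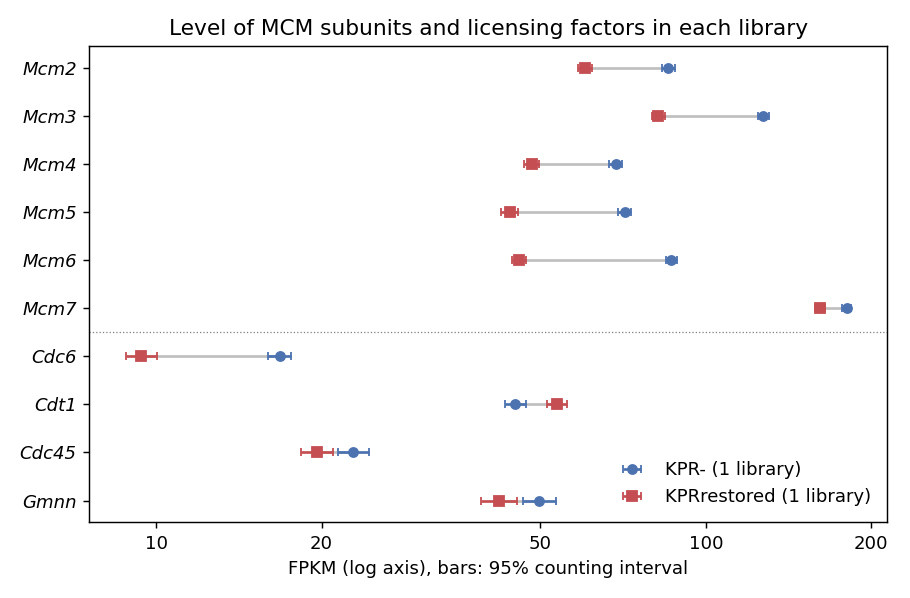
FPKM (log axis) of the 6 MCM subunits, above the dotted line, and the 4 licensing factors, below it, with circles for the KPR- library, squares for the KPRrestored library and bars for the 95% counting interval. Cdt1 alone has its square to the right of its circle, and Mcm7 is the highest of the 10 in both libraries, at 180.3 and 161 FPKM.

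The helicase subunits were lower to unequal degrees. Their median log2 difference was -0.57, with 5 of 6 genes lower by 0.5 or more, and their summed level went from 619 FPKM in KPR- to 441 FPKM in KPRrestored, a log2 ratio of -0.49. Individual differences ran from -0.92 for Mcm6 to -0.16 for Mcm7. The gap between the highest and the lowest subunit was 2.63-fold in KPR- and 3.67-fold in KPRrestored.

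Mcm6, which sits between Mcm2 and Mcm4 in the ring, had the largest fall. The gene lies on chromosome 1 of GRCm38 from 128331590 to 128359664 on the minus strand, and its longest transcript with a RefSeq counterpart has 16 exons and 4355 bases. It had 86.6 FPKM in KPR- and 45.8 FPKM in KPRrestored, from about 7826 and 4249 fragments. It fell by 47.2%, a log2 difference of -0.92 with an interval of -0.97 to -0.87. That difference stood at percentile 1.82 of all 11231 genes.

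Mcm5, the neighbour of Mcm2 across the gate through which DNA enters the ring, came next among the subunits. It lies on chromosome 8 from 75109569 to 75128439 on the plus strand, with 17 exons. Its level was 71.1 FPKM in KPR- and 44.0 FPKM in KPRrestored, from about 4919 and 3123 fragments. The log2 difference was -0.69, with an interval of -0.76 to -0.63, so that it did not overlap the interval of Mcm6.

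Mcm3, which pairs with Mcm5 and binds the Cdc6-bound origin complex during loading, lies on chromosome 1 from 20802968 to 20820312 on the minus strand, with 17 exons. It was at 127 FPKM in KPR- and 81.9 FPKM in KPRrestored, from about 7829 and 5175 fragments. It fell by 35.7%, a log2 difference of -0.64 with an interval of -0.69 to -0.59. Mcm3 was the second most abundant subunit in both libraries.

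Mcm2 and Mcm4 lay just past the threshold. Mcm2, the other side of the gate and a histone binding subunit, is on chromosome 6 from 88883474 to 88898780 on the minus strand, with 16 exons. It had 85.5 FPKM in KPR- and 60.3 FPKM in KPRrestored, a log2 difference of -0.50 with an interval of -0.56 to -0.45. Mcm4, whose long tail is a main substrate of DDK, is on chromosome 16 from 15623897 to 15637400 on the minus strand, with 16 exons. It had 68.5 FPKM in KPR- and 48.2 FPKM in KPRrestored, a log2 difference of -0.51 with an interval of -0.57 to -0.44. The intervals of both genes include the threshold, and with a pseudocount of 1 both differences were under 0.5 in size, which leaves 4 of the 10 genes lower.

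Mcm7 stood apart from the other 5 subunits. It lies on chromosome 5 from 138164583 to 138172422 on the minus strand, with 15 exons, and hosts the miRNA genes Mir25, Mir93 and Mir106b on the same strand. Its level was 180.3 FPKM in KPR- and 161 FPKM in KPRrestored, from about 10818 and 9948 fragments. The log2 difference was -0.16 with an interval of -0.20 to -0.12, under the threshold but below 0. It stood at percentile 31.5 of all genes, inside the range of their middle quartiles.

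**Figure D2:**
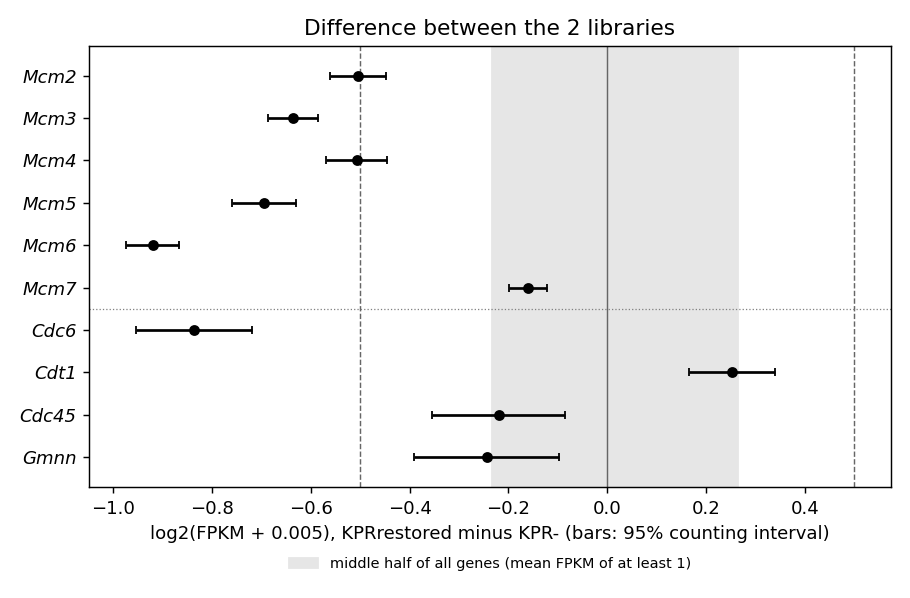
Log2 difference of each gene (points, KPRrestored minus KPR-) with its 95% counting interval (bars). The grey band runs between the quartiles of all genes whose FPKM averaged 1 or more, from -0.23 to 0.27, and dashed lines mark -0.5 and 0.5. Mcm7, Cdt1 and Cdc45 lie in the band, and Mcm6 and Cdc6 lie farthest to the left.

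Because the 6 subunits make up the ring together, their levels were also set against each other within each library, which does not depend on the scaling between libraries. Mcm7 made up 29.1% of the summed MCM FPKM in KPR- and 36.5% in KPRrestored. The share of Mcm6 went from 14.0% to 10.4% and that of Mcm3 from 20.6% to 18.5%. Mcm2 was at 13.8% in KPR- and 13.7% in KPRrestored, and Mcm4 at 11.1% and 10.9%. Mcm5 was at 11.5% in KPR- and 9.96% in KPRrestored.

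The order of the subunits from high to low was Mcm7, Mcm3, Mcm6, Mcm2, Mcm5 and Mcm4 in KPR-. In KPRrestored it was Mcm7, Mcm3, Mcm2, Mcm4, Mcm6 and Mcm5. Neighbours whose counting intervals overlapped were Mcm6 with Mcm2 and Mcm5 with Mcm4 in KPR-, and Mcm4 with Mcm6 and Mcm6 with Mcm5 in KPRrestored. The ratio of a pair changed beyond counting error in 13 of the 15 pairs of subunits, with fragments computed from the longest transcripts. With the shortest coding transcript the interval of the log2 difference was wider, -0.76 to -0.26 for Mcm4 and -0.26 to -0.06 for Mcm7. The pairs were not computed again with it, so small changes of a ratio are less certain. The largest change was that of Mcm6 to Mcm7, from 0.480 in KPR- to 0.284 in KPRrestored, a log2 change of -0.76 with an interval of -0.83 to -0.69. The exceptions were Mcm2 to Mcm4, with a log2 change of 0.0024 (interval -0.082 to 0.087), and Mcm3 to Mcm5, with 0.058 (interval -0.025 to 0.14).

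**Figure D3:**
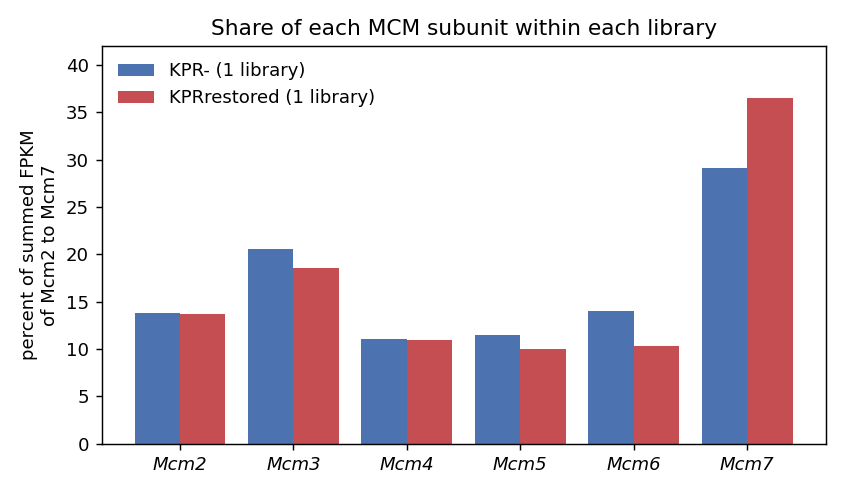
Percent of the summed FPKM of Mcm2 to Mcm7 that each subunit made up in the KPR- library (left bars) and the KPRrestored library (right bars), 1 library each. The share of Mcm7 is larger in KPRrestored (36.5% against 29.1%) and the other 5 shares are smaller, that of Mcm6 by the widest margin.

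The promoters of Mcm6, Mcm5 and Mcm2 are shown because Mcm6 and Mcm5 fell most among the subunits and Mcm2, at a level near that of Mcm6 in KPR-, fell less. Each is the 250 bases before the RefSeq transcription start in GRCm38.p6, 5′ to 3′ on the strand of the gene, at chr1:128359706-128359955 (minus) for Mcm6, chr8:75109259-75109508 (plus) for Mcm5 and chr6:88898781-88899030 (minus) for Mcm2. These 3 promoters were thus picked by their differences. Of the subunits not shown, Mcm3, at -0.64, has no E2F letters in its 250 bases. Mcm7, at -0.16, has a match 165 to 158 bases before a start. Capitals mark exact E2F letters, with overlapping matches joined.
Mcm6: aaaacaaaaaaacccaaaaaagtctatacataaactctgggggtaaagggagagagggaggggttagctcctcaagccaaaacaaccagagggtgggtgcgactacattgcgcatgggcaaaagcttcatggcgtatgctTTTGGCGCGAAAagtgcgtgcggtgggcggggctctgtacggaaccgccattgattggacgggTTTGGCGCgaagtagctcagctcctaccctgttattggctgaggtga
Mcm5: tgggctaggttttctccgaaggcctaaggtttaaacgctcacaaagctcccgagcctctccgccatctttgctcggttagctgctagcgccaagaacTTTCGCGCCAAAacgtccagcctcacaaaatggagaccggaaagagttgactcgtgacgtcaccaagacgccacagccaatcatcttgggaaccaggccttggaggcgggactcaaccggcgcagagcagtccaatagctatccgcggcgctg
Mcm2: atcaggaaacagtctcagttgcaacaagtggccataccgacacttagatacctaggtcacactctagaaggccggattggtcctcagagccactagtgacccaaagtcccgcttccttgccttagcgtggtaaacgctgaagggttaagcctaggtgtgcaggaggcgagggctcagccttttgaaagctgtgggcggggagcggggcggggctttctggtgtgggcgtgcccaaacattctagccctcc

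The E2F letters searched were TTTCCCGC, TTTCGCGC, TTTGCCGC and TTTGGCGC on both strands, from 250 bases before the start to 50 after it. They were present in 2.26% of all 32851 RefSeq windows of this length and in a window of 6 of the 8 licensing genes that have one, which are Mcm3, Mcm5, Mcm6, Mcm7, Cdc6 and Cdt1. Mcm2 and Cdc45 had no exact match, and among the other origin and licensing genes a match was found in 10 of 38. In Mcm5 matches on opposite strands overlap to form TTTCGCGCCAAA, 153 to 142 bases before the start. In Mcm6 the reverse complement of the same 12 bases, TTTGGCGCGAAA, lies 110 to 99 bases before the start, with a further match at 47 to 40. This run, which was singled out after it was seen, was found in 4 of the 32851 windows, those of Mcm5, Mcm6, Msh3 and Mycn.

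Mcm7 has a match 165 to 158 bases before the RefSeq start, inside the first exon of a longer annotated transcript, and another after the start. The match of Cdc6 lies 138 to 131 bases before it, inside the first intron of a longer transcript. For Mcm3 and Cdt1 the matches found all lie after the start. E2F letters were found for Mcm7, with the smallest change of the subunits, and for Cdt1, the gene with a difference above 0. Their place differs between genes, and Mcm3 and Cdt1, with matches only after the start, had differences of -0.64 and 0.25. Any link between the letters and the differences was not tested. RUNX letters, TGTGGT or TGCGGT on both strands, were present in 22.4% of all windows and in 2 of the 8 genes. They lie 92 to 87 bases before the start of Mcm6 and 201 to 196 before that of Mcm3. The CCAAT box was present in 37.4% of all windows and in 6 of the 8 genes, Mcm2, Mcm3, Mcm5, Mcm6, Mcm7 and Cdc45. A match is a description of letters and not evidence of binding.

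**Figure D4:**
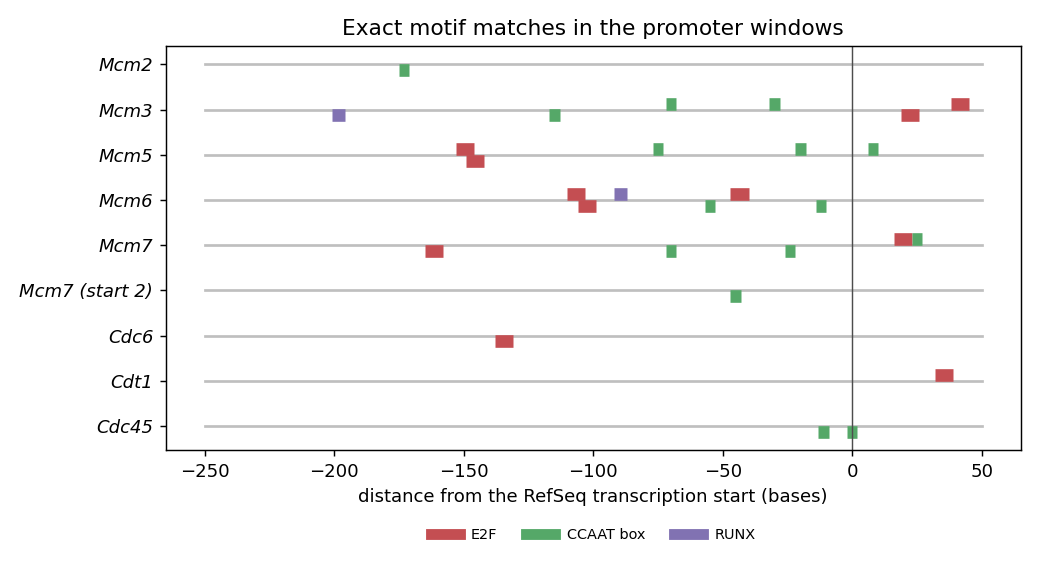
Exact motif matches by distance from the RefSeq transcription start (bases) in the 9 windows of 8 genes, with Mcm7 having 2 starts. Coloured blocks are E2F, CCAAT box and RUNX matches, above the line on the strand of the gene and below it on the other. Mcm5 and Mcm6 each show a pair of overlapping E2F blocks before the start, and RUNX blocks appear for Mcm3 and Mcm6.

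The differences of the 4 licensing factors went both ways. Their median log2 difference was -0.23, with 1 gene lower by 0.5 or more, and the MCM median minus this value was -0.34. Their summed level was 134 FPKM in KPR- and 125 FPKM in KPRrestored. Only Cdc6 passed the threshold, and 1 of 4 genes is near what the 9.29% of all 11231 genes that were lower gives. That count says nothing about the 4 genes as a set.

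Cdc6, the ATPase that joins the origin recognition complex to recruit the helicase, lies on chromosome 11 from 98907801 to 98923940 on the plus strand, with 12 exons. It was the lowest of the 10 genes in both libraries, at 16.8 FPKM in KPR- and 9.39 FPKM in KPRrestored, from about 1610 and 927 fragments. It fell by 44.0%, a log2 difference of -0.84 with an interval of -0.95 to -0.72. Among the 11231 expressed genes its level went from percentile 56.8 to percentile 38.2.

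Cdt1, which brings the MCM ring to Cdc6 and the origin recognition complex, had the only difference above 0. It lies on chromosome 8 from 122568015 to 122573554 on the plus strand, with 10 exons. Its level was 45.0 FPKM in KPR- and 53.6 FPKM in KPRrestored, from about 1944 and 2379 fragments. The log2 difference was 0.25 with an interval of 0.17 to 0.34, under the threshold. An annotated gene, Gm20388, spans Cdt1 on the same strand, and how fragments in the shared bases were assigned is not given in the sources used here.

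Gmnn, whose product geminin binds and blocks Cdt1, lies on chromosome 13 from 24751845 to 24761923 on the minus strand, with 7 exons. It was at 49.8 FPKM in KPR- and 42.1 FPKM in KPRrestored, from about 819 and 711 fragments. Its log2 difference of -0.24, with an interval of -0.39 to -0.10, did not reach the threshold. Cdc45, the helicase activator that joins the ring when an origin fires, lies on chromosome 16 from 18780447 to 18811987 on the minus strand, with 20 exons. It had 22.9 FPKM in KPR- and 19.6 FPKM in KPRrestored, a log2 difference of -0.22 with an interval of -0.36 to -0.09. For Cdc45 the interval was -0.46 to 0.02, and includes 0, when fragments were computed with its shortest coding transcript.

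The balance between the licensing factors was read from their ratios within each library. The ratio of Cdt1 to its inhibitor Gmnn was 0.904 in KPR- and 1.28 in KPRrestored, a log2 change of 0.50 with an interval of 0.32 to 0.67. The ratio of Cdc6 to Cdt1, partners in loading, went from 0.372 to 0.175, a log2 change of -1.09 with an interval of -1.23 to -0.94. The ratio of Cdc45 to Gmnn was 0.459 and 0.467, and the interval of its log2 change, -0.18 to 0.22, includes 0. These are ratios of RNA levels per transcript length, and the activity of Cdt1 and geminin is set largely by protein turnover, which was not measured in these libraries.

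Around the 10 genes, the other lists of origin and licensing genes held 48 genes, of which 46 were expressed at a mean FPKM of 1 or more. Their median log2 difference was -0.19, with 11 genes lower, 0 genes higher and 36 genes below 0, beside 9.29% lower, 12.1% higher and 49.0% below 0 among all 11231 genes. In the lists that follow, counts of 1 gene are near what that share of lower genes gives and say nothing about the list.

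In the origin recognition complex, which marks origins, 1 of 6 genes was lower and the median was -0.11. That gene was Orc1, the subunit whose amount changes through the cell cycle, which fell from 8.38 to 4.81 FPKM, a log2 difference of -0.80 with an interval of -1.01 to -0.59. Orc4 had the highest difference of the complex, 0.15, with 15.6 and 17.3 FPKM. Of the other MCM family proteins and the MCM binding protein, 0 of 4 passed the threshold, with a median of -0.26. Their differences ran from -0.42 for Mcm10, a factor of helicase activation at 24.2 and 18.1 FPKM, to 0.03 for Mcmbp, which binds free MCM subunits, at 32.4 and 33.1 FPKM.

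The activators of the loaded ring were lower in part. Among DDK and origin firing factors, 3 of 7 genes were lower, with a median of -0.35. Cdc7, the catalytic subunit of DDK, fell from 15.6 to 9.22 FPKM, a log2 difference of -0.76. Ticrr (treslin), which helps Cdc45 join the ring, had a difference of -0.62, from 8.30 to 5.40 FPKM. Topbp1, its binding partner, went from 36.2 to 24.8 FPKM, a difference of -0.54. Dbf4, the regulatory partner of Cdc7, had 48.7 and 46.6 FPKM and a difference of -0.06, while Mtbp, another partner of treslin, had 17.6 and 22.6 FPKM and a difference of 0.36. The GINS subunits, which complete the CMG helicase, had a median of -0.16 with 0 of 4 past the threshold, from -0.40 for Gins2 at 33.9 and 25.8 FPKM to 0.10 for Gins4 at 39.7 and 42.6 FPKM.

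Among CDK and cyclins, which promote firing and prevent relicensing, 3 of 6 genes were lower and the median was -0.40. Ccne2 fell by 1.22 on the log2 scale, from 4.42 to 1.89 FPKM, and Ccne1 fell by 0.78, from 12.0 to 6.97 FPKM. These encode the E-type cyclins of the G1 to S transition. Ccna2, the S phase cyclin, had a difference of -0.55, from 85.8 to 58.5 FPKM, whereas the mitotic cyclin Ccnb1 had 99.7 and 94.0 FPKM and a difference of -0.08.

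Of 8 genes for the turnover of licensing proteins, only Skp2 passed the threshold, near the 9.29% of all genes that were lower, and the median was -0.17. Skp2, a ubiquitin ligase subunit that marks Cdt1 for destruction in S phase, fell from 20.3 to 13.2 FPKM, a log2 difference of -0.62 with an interval of -0.74 to -0.49. Fzr1, an activator of the anaphase promoting complex in G1 phase, had 39.6 and 43.4 FPKM and a difference of 0.13.

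All 4 fork stabilisers that travel with the helicase had differences below 0, with 3 of them lower by 0.5 or more and a median of -0.61. Wdhd1, which ties DNA polymerase alpha to the helicase, fell from 16.4 to 9.29 FPKM, a log2 difference of -0.82. Clspn (claspin) had a difference of -0.68, from 12.9 to 8.07 FPKM, and Timeless one of -0.54, from 20.1 to 13.8 FPKM. Tipin, the partner of Timeless, had 26.8 and 20.1 FPKM and a difference of -0.42.

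The genes for unloading the helicase after replication, in contrast, centred near 0. Their median was -0.03 with 0 of 4 past the threshold, from -0.19 for Lrr1 at 4.81 and 4.20 FPKM to 0.13 for Ubxn7 at 5.05 and 5.51 FPKM. Of 5 chromatin helpers of licensing, 3 were expressed, with a median of 0.12 and 0 past the threshold. Lrwd1, which binds the origin recognition complex, had a difference of 0.23 at 34.0 and 40.0 FPKM, and Rif1, which brings the phosphatase that counters DDK, had a difference of -0.42 at 18.6 and 13.9 FPKM. Gmnc and Mcidas, relatives of Gmnn, had a mean FPKM under 1.

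**Figure D5:**
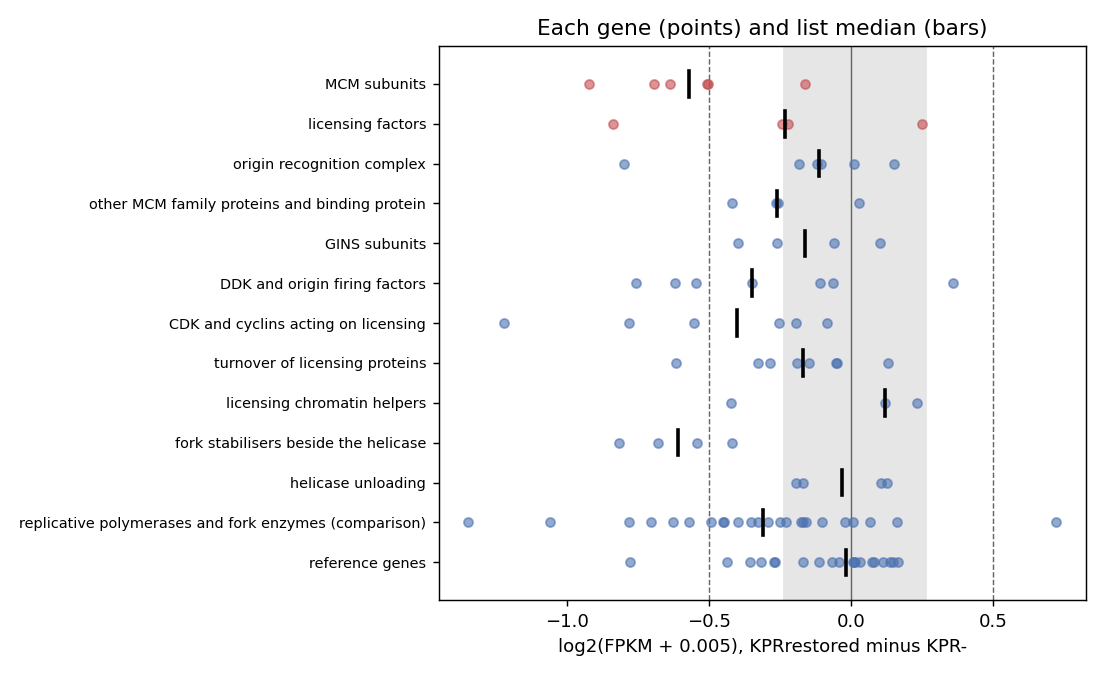
Log2 difference (KPRrestored minus KPR-) of each expressed gene by list, with red points for the 10 genes, blue points for other genes, black bars for list medians, a grey band between the quartiles of all genes and dashed lines at -0.5 and 0.5. The medians of the MCM subunits (-0.57) and fork stabilisers (-0.61) lie past -0.5, and that of the reference genes is -0.017.

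For comparison, 24 replicative polymerase and fork enzyme genes had a median of -0.31, with 6 lower, 1 higher and 20 below 0. Beside these counts, 9.29% of all 11231 genes were lower, 12.1% were higher and 49.0% were below 0. The 6 lower genes were Dna2, Pola1, Pole, Rfc5, Rfc2 and Pole2, from -1.35 to -0.57, and the higher gene was Pold4, a small subunit of DNA polymerase delta, which rose from 40.2 to 66.4 FPKM. The 20 reference genes, used as a check of the scale, had a median of -0.017, with 1 lower (Tfrc, at -0.78) and 0 higher. Their largest rise was that of Rpl13a, at 0.17.

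Some of the 10 genes share their start with a gene on the opposite strand, whose values were compared side by side. The start of Prkdc, which encodes the catalytic subunit of a DNA repair kinase, lies 466 bases from that of Mcm4 and points away from it. It had 2.44 FPKM in KPR- and 1.76 FPKM in KPRrestored, a log2 difference of -0.48 with an interval of -0.65 to -0.31, beside -0.51 for Mcm4. The neighbours of Mcm7 and Cdc45 differed in sign from their partners. Ap4m1, an adaptor complex subunit that overlaps 421 bases of Mcm7, had 10.8 and 14.2 FPKM, a log2 difference of 0.40 with an interval of 0.26 to 0.54. Ufd1, a cofactor of the p97 ATPase that overlaps 209 bases of Cdc45, had 22.5 and 27.0 FPKM, a log2 difference of 0.26 with an interval of 0.13 to 0.39. Cops6 shares 64 bases with Mcm7 on the opposite strand and had 150.2 and 143 FPKM, a difference of -0.07. The libraries were directional, but whether strand was used in the estimate of FPKM is not given in the sources used here, so the split of fragments in these overlaps is uncertain.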

How the data were processed

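mRNA sequencing of 2 libraries, 1 of KPR- cells and 1 of KPRrestored cells, was examined. The groups were taken from the sample records. The authors isolated poly(A) RNA, prepared directional libraries, aligned the paired-end reads with TopHat and deposited Cufflinks FPKM values per gene. The submitters' processing notes name mm10, and tool versions and the annotation are not given in the sources used here.

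From these FPKM values the difference of each gene was taken on the log2(FPKM + 0.005) scale, KPRrestored minus KPR-. The threshold was 0.5, with a filter of a mean FPKM of at least 1. So small a pseudocount hardly shrinks low genes, and below the filter a few fragments can give large differences. Mcidas, for example, had a difference of 2.36 from 0 fragments in KPR- and 1 in KPRrestored. With 1 library per condition no test was made and no p-value was computed. The 10 genes, the lists and the rule for named genes were chosen with earlier results of these data known. Named were the 10 genes, the genes of each other list past 0.5 and its largest rise and fall on log2(FPKM + 1), genes whose start lies within 1 kb of one of the 10 on the other strand, and Runx3. Of the other genes named, Cops6, Gm20388, Mir25, Mir93, Mir106b, Msh3, Mycn and Dbf4 were chosen after their values or positions were seen. Gmnc and Mcidas fall outside the rule too and were named because they lie under the filter.

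Of 23183 symbols, 22148 matched GENCODE M21 (GRCm38) directly and 665 through a synonym. Depth was estimated from 542 low genes of a single transcript length in KPR- and 554 in KPRrestored, of which 77.9% and 80.5% lay within 0.1 of a whole fragment, and the mean fragment length came to 210 bases. Fragments were computed with the longest transcript that has a RefSeq counterpart, and are upper estimates for genes with shorter transcripts. Promoters came from RefSeq (GRCm38.p6) for 8 of the 10 genes, with Mcm4 and Gmnn not among them. The depth estimate and intervals were tested on simulated data. Alternatives were other pseudocounts, filters, thresholds, scalings and transcript lengths, and ranges of FPKM and transcript length added after the data were seen. The scripts ran under Python 3.11.15 with scipy 1.17.1, pandas 2.3.3, numpy 2.4.6 and matplotlib 3.10.9.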

Additional observations from a re-analysis of the deposited data

How the results depend on the processing

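With a threshold of 1 in place of 0.5, 0 of the 10 genes were lower, and with a pseudocount of 1 the count was 4, as Mcm2 and Mcm4 were at -0.497 and -0.498 and Mcm3, Mcm5, Mcm6 and Cdc6 remained. Scaling to the same upper quartile moved the log2 ratio of summed MCM FPKM from -0.49 to -0.51. Scaling to the same total, to the same upper quartile and centring on the median gene shifted all differences by -0.0064, -0.022 and -0.0086. In 60 alternatives of single genes, 0 changed sign, an outcome fixed in advance that gives no support to the directions. A pseudocount, or a transcript length shared by both libraries, cannot turn a sign apart from rounding. The scaling shifts were far smaller than the smallest difference, -0.16 for Mcm7. The share of all genes lower by 0.5 or more was 12.9% with no filter, 7.32% at a mean FPKM of at least 5, 6.78% with a pseudocount of 1, 6.52% among genes in the range of mean FPKM of the 10 genes and 7.41% in their range of transcript length. With 1 library per condition, the variation between cultures is unknown and no replicate could be left out. No paired analysis was possible because each condition has 1 library and no test was made.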
